A study of Mus musculus with 12 samples.

Results

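The comparison of Oxa with control cells draws on 6 of the 12 RNA libraries of the series, 3 from each group, chosen by their labels. All are from 4T1, a mammary carcinoma line from a BALB/c mouse, described in the labels as an adherent line of wild-type (WT) genotype. The treated cells carry the treatment label Oxa, which the labels do not spell out and give no dose or time for, and the controls are titled PBS but carry the treatment label DMSO. Control values stand in columns named CON, matched to the PBS titles by inference, and the series design text speaks of a xenograft where the labels speak of cultured cells. The other 6 libraries (APAP and OAP2) are not compared here, but share in the estimate of spread and in the choice of genes tested.

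The comparison asks which transcripts differed between Oxa and control cells. Several of the gene groups below belong to the growth machinery of a tumour cell: ribosomal proteins and small nucleolar RNA (snoRNA) host genes serve ribosome production, G1/S genes encode the replication apparatus that E2F factors switch on, and ATF4 drives amino acid supply under stress. Immediate early genes answer growth factor signals through ERK within minutes and are restrained by phosphatases and Sprouty proteins that the same signals induce. Polycomb proteins keep developmental genes silent.

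Total counts ran from 64071751 to 69579384 in the 6 libraries. Levels are FPKM, fragments scaled to transcript length and library size. Changes are log2 fold changes, Oxa minus PBS, ± SE, from an edgeR quasi-likelihood fit of the counts, and calls are genes with a Benjamini-Hochberg adjusted p under 0.05 over the 12036 tested. Where 3 values are given for a group they are its libraries 1, 2 and 3, in FPKM. In parentheses a log2 change is followed by its adjusted p. The labels do not say that replicates were separate cultures, so the p-values reflect no more than the variation among the libraries themselves. They name no batch.

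All 10 epithelial markers were present in every library, with a mean log2(FPKM + 1) of 6.73 to 7.05, and Epcam stood between 90.0 and 120 FPKM in the 6 libraries compared. The control library PBS 2 departed from its group. Its red blood cell markers averaged 3.69 and its neutrophil markers 1.91 on that scale, against at most 0.07 and 0.09 in the other libraries, with Hbb-bs at 89.7 FPKM in PBS 2 and at 0.00 to 0.03 in the other 5 libraries compared. None of the 7 red cell and 10 neutrophil markers measured was at 0 in PBS 2. Macrophage markers averaged 1.36 in PBS 1 and 0.61 to 1.00 elsewhere, and Lyz2, the lysozyme of myeloid cells, was at 31.0, 6.23 and 0.00 FPKM in PBS 1 to 3 and at 7.79, 5.77 and 5.97 in Oxa 1 to 3. The part of these transcripts in the results was not tested, and in bulk RNA fewer cells of a type and less RNA per cell cannot be told apart. On the first principal component of log2 CPM (26.8% of the variance) PBS 2 lay at 29.23, within the range of the Oxa libraries (23.61 to 33.84), and on the second (14.4%) at -37.87, apart from the Oxa libraries (12.78 to 20.27) and from the other controls. Counts of calls are therefore also given without PBS 2, with medians for many of the lists and values for some single genes. A gene or median given only with all libraries may still be moved by PBS 2. For example, the log2 change of Exo1 was 0.67 with all libraries and 0.86 without PBS 2.

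Oxa cells held 644 genes at higher and 573 at lower levels than the controls, 10.1% of the genes tested (5.35% higher, 4.76% lower). The change passed 2-fold for 70 of the higher and 86 of the lower genes. The groups did not overlap in FPKM for 29.1% of tested genes, and the median log2 change of all tested genes was -0.01. Among called genes they did not overlap for 99.2% of the higher and 96.3% of the lower. Groups that lie apart therefore add little to a call in what follows. Without PBS 2 the calls numbered 1714 higher and 1352 lower, 25.5% of genes (14.2% and 11.2%), and the median change stayed at -0.01. Counts of called members in every list below stand beside these shares of all tested genes, with and without PBS 2. Of the 1217 genes called with all libraries, 1182 were called in the same direction without PBS 2 and 35 were not called. A further 1884 were called only without it, and in 1805 of these PBS 2 lay on the Oxa side of PBS 1 and PBS 3, in 1342 beyond the nearest Oxa library. Leaving out any other of the 6 libraries left between 477 and 736 calls: 736 without PBS 1, 664 without PBS 3, and 536, 477 and 585 without Oxa 1, 2 and 3.

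**Figure D1:**
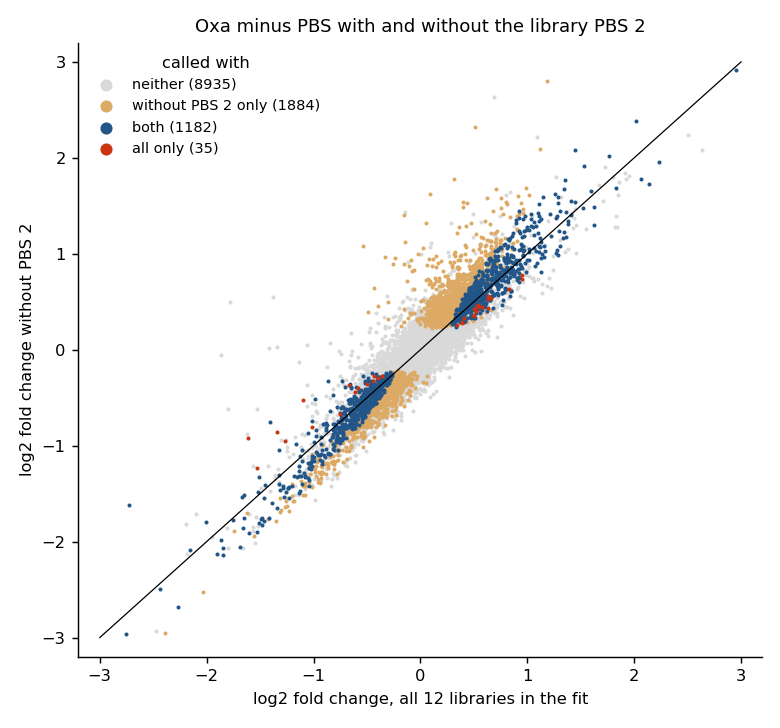
Log2 fold change of each tested gene, Oxa minus PBS, with all 12 libraries in the fit (horizontal axis) and without PBS 2 (vertical axis). Colours mark genes called in both fits (1182), only without PBS 2 (1884), only with all libraries (35) or in neither (8935), the line marks equal values, and 10 genes lie outside the axes.

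The most clearly separated genes came from several functions. Cbx2, a chromodomain subunit of polycomb repressive complex 1 (chromosome 11, 119022962 to 119031270 in GRCm38), was at 2.79, 1.86 and 2.25 FPKM in PBS 1 to 3 and at 6.83, 7.13 and 7.23 in Oxa 1 to 3. The Oxa libraries all lay above the controls, with a log2 change of 1.62 ± 0.15, or 3.08-fold (adjusted p = 0.000241, 1.49 without PBS 2). Cth, the cystathionine gamma-lyase that makes cysteine by transsulfuration (chromosome 3, 157894248 to 157925077), was at 26.1, 35 and 27.3 in PBS and 8.89, 8.61 and 10.1 in Oxa. Its 3 Oxa values lay far below the lowest control, a change of -1.67 ± 0.16, or 3.18-fold lower (adjusted p = 0.000241, -1.53 without PBS 2). Dsg3, a desmosomal cadherin (chromosome 18, 20510274 to 20547459), was at 11.7, 13.8 and 12.4 in PBS and 5.93, 5.28 and 6.25 in Oxa, a change of -1.11 ± 0.10 (0.000241). Csrnp1, a nuclear protein induced by AXIN1 (chromosome 9, 119971163 to 119984658), was at 28, 27.2 and 34 in PBS and 14.4, 13.3 and 13.3 in Oxa, a change of -1.11 ± 0.10 (0.000241). In both the groups were apart.

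Among the other rises with the smallest p were transcription regulators. Irf2bp2, a corepressor partner of IRF2, was at 21, 17.6 and 16.4 in PBS and 40.1, 42.9 and 35.2 in Oxa (1.11 ± 0.13, adjusted p = 0.000899). Mnt, which competes with MYC for MAX and represses MYC targets (chromosome 11, 74830920 to 74845725), was at 10.2, 7.86 and 8.33 in PBS and 23, 24.8 and 20.7 in Oxa (1.38 ± 0.16, 0.000899). The zinc finger genes Zfp553 (0.96 ± 0.11) and Patz1 (0.87 ± 0.11) rose too. Metabolic and membrane genes in the same set were the dNTP hydrolase Samhd1, from 6.81 ± 0.435 to 11.1 ± 0.606 FPKM (mean ± SD, n = 3; 0.71 ± 0.08), Gpd1l (0.96 ± 0.12), the lipid-raft protein Flot2 (0.75 ± 0.10), and Pip5k1c, a kinase that makes PI(4,5)P2 (0.60 ± 0.08). Wdr45, an autophagy protein, rose by 0.92 ± 0.11 and the ciliary transport gene Ift46 by 0.77 ± 0.09. Limd2 (1.02), Zfyve19 (1.02), Wbp2 (0.72) and Narf (1.41) completed the 15.

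Among the falls, Serpinb2, which inhibits urokinase, was at 13.5, 16.5 and 15 in PBS and 3.7, 3.41 and 2.83 in Oxa (-2.16 ± 0.23, or 4.48-fold lower, adjusted p = 0.000643). Selenoo, a mitochondrial selenoprotein that attaches AMP to other proteins, was at 3.56, 2.26 and 4.21 in PBS and 1.01, 0.79 and 0.94 in Oxa (-1.85 ± 0.21, 0.000767). Gnpnat1, the acetyltransferase of the hexosamine pathway, was at 12.3, 15.1 and 25.4 in PBS and 4.61, 5.93 and 6.02 in Oxa (-1.65 ± 0.23, 0.00235). For these 3 the Oxa libraries lay wholly below the controls. Genes that act on RNA and transcription were the FUSE-binding protein Fubp1 (-0.75 ± 0.08), the termination factor Pcf11 (-0.88 ± 0.10) and Taf1d of the RNA polymerase I selectivity factor (-0.80 ± 0.11). Mdm4, an inhibitor of p53, fell from 15.2 ± 1.86 to 8.53 ± 0.469 FPKM (-0.83 ± 0.11), and Amd1, which supplies decarboxylated S-adenosylmethionine for polyamines, from 46.8 ± 3.88 to 28.6 ± 1.65 (-0.70 ± 0.09). Nt5e (CD73, which makes adenosine) fell by 0.77, Serpinf1 by 1.46, Hectd2 by 1.0 and Zfp746 by 0.79 on the log2 scale. The rule that chose these 30 genes required the groups to be apart and the same call without PBS 2. They were also called without each of the other 5 libraries in turn, with a largest adjusted p of 0.016.

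**Figure D2:**
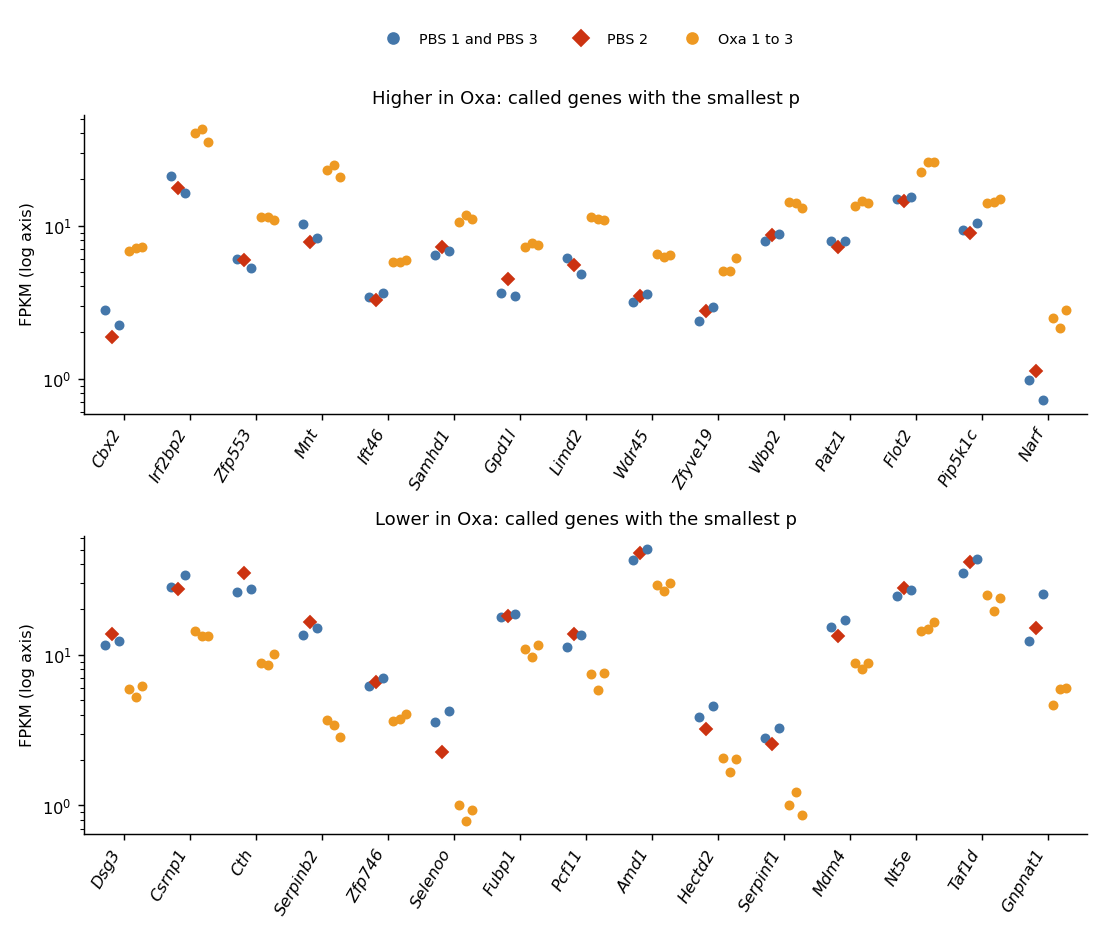
FPKM on a log axis in each PBS and Oxa library for the 15 higher (top) and 15 lower (bottom) called genes with the smallest p. Each point is 1 library, and PBS 2 (red diamonds) lies with PBS 1 and PBS 3 and apart from the Oxa libraries in every gene shown, as the choice of genes required.

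Of 29 polycomb genes tested, 4 rose and 0 fell (median 0.06, without PBS 2 5 higher, 2 lower and 0.05). The shares of all tested genes called were 5.35% higher and 4.76% lower (14.2% and 11.2% without PBS 2). Cbx2, Phc1 and Cbx8, subunits of repressive complex 1, were among those that rose. Phc1 was at 3.18, 3.06 and 2.83 in PBS and 4.66, 5.36 and 4.87 in Oxa (0.72 ± 0.13, adjusted p = 0.00691). Cbx8 was at 3.05, 2.03 and 2.11 in PBS and 3.76, 3.39 and 4.28 in Oxa (0.67 ± 0.18, 0.0344), and its call ended without PBS 3, Oxa 1, Oxa 2 or Oxa 3 (adjusted p up to 0.118). For Cbx2, Phc1 and Cbx8 the groups did not overlap. In the MYC network Mnt and Mxi1, another MAX partner that represses MYC targets (6.35, 4.65 and 5.59 in PBS and 8.71, 7.37 and 9.86 in Oxa, 0.65 ± 0.13, 0.00907), rose and 0 of 9 fell (median 0.25; 5 higher, 1 lower and 0.27 without PBS 2). Myc itself was at 286, 310 and 308 in PBS and 355, 368 and 345 in Oxa (0.25 ± 0.09, 0.079), and without PBS 2 it was called (0.27, 0.0433).

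Host genes of snoRNAs were mostly lower in Oxa cells where called. These transcripts carry snoRNAs in their introns, which guide modification of ribosomal RNA. Of 19 tested in the list, which also holds long noncoding RNAs, 7 fell, 1 rose and 17 had a negative value. Of all tested genes 51.6% had a negative value, 4.76% were called lower and 5.35% higher. The list median was -0.47 against -0.01 for all genes (without PBS 2 -0.46, with 7 lower and 1 higher). Snhg12 was at 65.8, 55.4 and 72.6 in PBS and 31.4, 30 and 36.6 in Oxa, about 1.97-fold lower (-0.98 ± 0.15, adjusted p = 0.00324). Snhg17 was at 26.5, 22.6 and 30.3 in PBS and 17.1, 14.6 and 14.9 in Oxa (-0.76 ± 0.12, 0.00406). Snhg15 was at 35.8, 21.9 and 40.5 in PBS and 17.2, 16.2 and 17.6 in Oxa (-0.94 ± 0.18, 0.00691). In Snhg15 and in Snhg16 (22.6, 15.3 and 28.5 in PBS and 10.9, 10.5 and 11.3 in Oxa, -1.01 ± 0.20, 0.00948) PBS 2 was the control nearest to Oxa, and no Oxa value reached a control. Zfas1, the most abundant of those called at 151, 119 and 197 in PBS and 73.5, 71.8 and 87.2 in Oxa, changed by -1.0 ± 0.25 (0.026), and its call ended without PBS 1, PBS 3, Oxa 1, Oxa 2 or Oxa 3 (adjusted p up to 0.102). The 1 member that rose was Rn7sk, the 7SK RNA that holds the elongation kinase P-TEFb inactive, at 7.33, 3.1 and 7.88 in PBS and 18.6, 23.4 and 13.8 in Oxa (1.62 ± 0.42, 0.029, lost without PBS 1, Oxa 1 or Oxa 2 (adjusted p up to 0.111)). It has no poly(A) tail, and the part of the poly(A) selection in its value was not tested.

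Genes of cytosolic ribosomal proteins had small negative values in nearly every case, most of them not called. Of 45 tested, 44 had a negative value, 5 fell and 0 rose, with a median of -0.32 (45 negative, 7 fell, -0.31 without PBS 2). Of all tested genes 51.6% had a negative value and 4.76% were called lower (50.7% and 11.2% without PBS 2). Rpl3, a protein of the large subunit (chromosome 15, 80077791 to 80091868), was at 274, 233 and 286 in PBS and 157, 151 and 170 in Oxa (-0.73 ± 0.11, adjusted p = 0.00334), with every Oxa library below every control. Rpl30 was at 34.3, 33.9 and 32.5 in PBS and 15.2, 21.9 and 23.7 in Oxa (-0.72 ± 0.15, 0.00975). Rps20 was at 88.3, 101 and 100 in PBS and 55.5, 58.4 and 62.2 in Oxa (-0.71 ± 0.15, 0.00989, 0.0525 without Oxa 1). Rpl5, which also binds MDM2 when free of ribosomes, was at 175, 190 and 194 in PBS and 129, 113 and 139 in Oxa (-0.55 ± 0.11, 0.0101, 0.0645 without Oxa 2). Ribosomal protein genes have many processed copies in the genome that could share their reads, so single members are less certain.

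Of 41 nucleolar factors that build ribosomes, 5 fell and 0 rose (median -0.08), and without PBS 2 the list split evenly, with 6 lower, 6 higher and a median of 0.01. Taf1d was at 34.8, 41.3 and 43.2 in PBS and 24.8, 19.4 and 23.9 in Oxa (-0.80 ± 0.11, adjusted p = 0.00234). Nop56, a core protein of box C/D snoRNPs, was at 218, 213 and 259 in PBS and 171, 155 and 188 in Oxa (-0.42 ± 0.11, 0.0344). The helicase Ddx21 was at 114, 156 and 115 in PBS and 94, 94.4 and 98.6 in Oxa (-0.42 ± 0.12, 0.04). The call of Nop56 ended without PBS 1, PBS 3, Oxa 1, Oxa 2 or Oxa 3 (adjusted p up to 0.149), and that of Ddx21 without PBS 1, Oxa 1, Oxa 2 or Oxa 3 (adjusted p up to 0.119). Among 29 translation factors, Pdcd4, an inhibitor of the helicase eIF4A, was at 1.38, 1.02 and 1.69 in PBS and 4.12, 2.94 and 3.22 in Oxa (1.33 ± 0.23, 0.00519), apart from the controls in every library. Eif4e, the cap-binding protein, was at 20, 21.6 and 21.8 in PBS and 15.4, 13.2 and 16.8 in Oxa (-0.48 ± 0.12, 0.0214, lost without PBS 3, Oxa 1 or Oxa 2 (adjusted p up to 0.108)). In all 2 of the 29 rose and 3 fell (3 and 2 without PBS 2).

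The splicing regulators that were called were lower in Oxa cells. Of 40 SR proteins, hnRNPs and splicing kinases, 9 fell and 0 rose, with a median of -0.15 (14, 0 and -0.17 without PBS 2). Hnrnpa1, an abundant hnRNP that opposes SR proteins, was at 368, 429 and 342 in PBS and 238, 229 and 224 in Oxa (-0.71 ± 0.10, adjusted p = 0.00256). Srsf1, a founding SR protein, was at 95, 96 and 96 in PBS and 68, 67.5 and 72.6 in Oxa (-0.46 ± 0.09, 0.00928). Rbm39 (-0.43 ± 0.08, 0.00672) and Tra2a (-0.40 ± 0.08, 0.00833) also fell, and for all 4 the highest Oxa library lay below the lowest control. The kinase Cdk9 of P-TEFb was at 20.4, 20.5 and 20.8 in PBS and 15.8, 16.5 and 15.4 in Oxa (-0.36 ± 0.08, 0.0144, lost without Oxa 1 or Oxa 3 (adjusted p up to 0.0669)). The elongation factor Ell was at 13.6, 15.6 and 14.2 in PBS and 17.7, 20.2 and 18.1 in Oxa (0.38 ± 0.11, 0.0395, lost without PBS 1, PBS 3, Oxa 1, Oxa 2 or Oxa 3 (adjusted p up to 0.176)). Of 13 genes of 7SK and P-TEFb tested, Rn7sk and Ell rose and Cdk9 fell (3 higher and 2 lower without PBS 2).

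**Figure D3:**
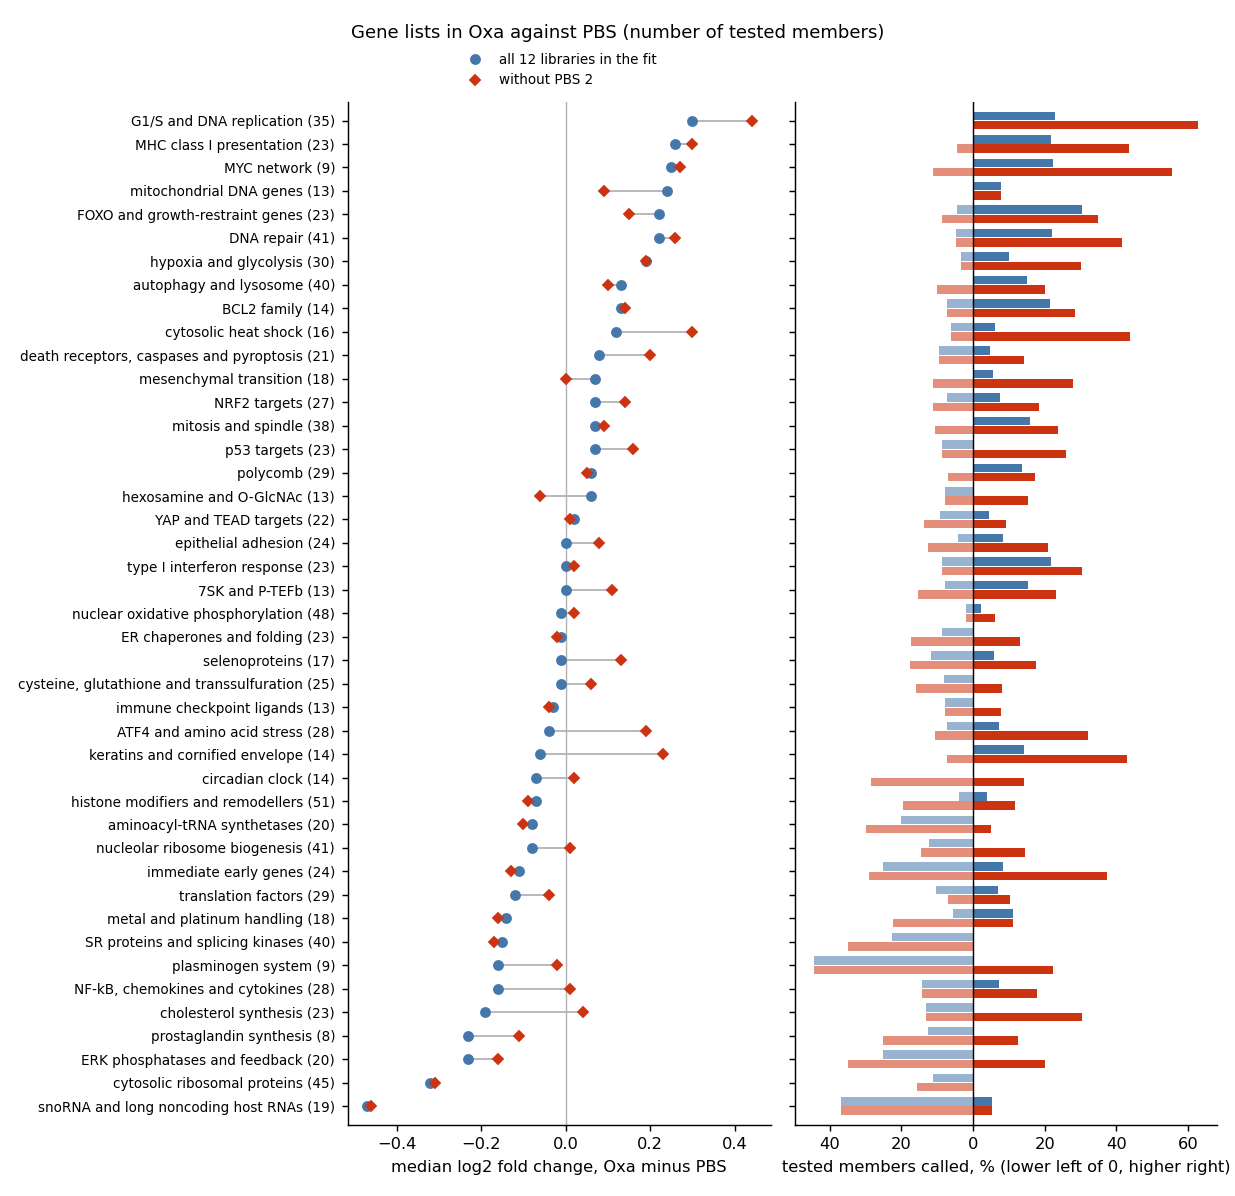
Gene lists with their number of tested members, ordered by the median log2 fold change (left: blue circles, all libraries; red diamonds, without PBS 2), and the percent of tested members called (right: bars to the right are higher in Oxa, paler bars to the left lower; blue all libraries, red without PBS 2). The snoRNA host and ribosomal protein lists have the lowest medians in both fits (-0.47 and -0.32 with all libraries), and the G1/S list (0.30) has the highest.

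The DNA replication genes that were called were higher in Oxa cells. Of 35 G1/S and replication genes, 8 rose and 0 fell (median 0.30), and 22 rose and 0 fell without PBS 2 (median 0.44). Calls of higher genes also grew over all tested genes, from 5.35% to 14.2% without PBS 2. Of the 4 members named here PBS 2 was the highest control in Mcm2, Pola2 and Pold1. Mcm2, a subunit of the replicative helicase, was at 14.7, 21.7 and 12.8 in PBS and 24.4, 26.1 and 25.4 in Oxa (0.63 ± 0.16, adjusted p = 0.0241; 0.89 and 0.000155 without PBS 2). Its PBS 2 value lies nearer to Oxa than to the other controls. Pola2 of the primase complex was at 5.85, 7.55 and 6.09 in PBS and 9.01, 9.55 and 9.4 in Oxa (0.53 ± 0.11, 0.0104). Ccne2 (cyclin E2) was at 3.04, 2.84 and 2.89 in PBS and 4.22, 4.1 and 4.59 in Oxa (0.56 ± 0.13, 0.0156). The polymerase subunit Pold1 was at 6.2, 8.04 and 6.04 in PBS and 10.2, 10.6 and 9.29 in Oxa (0.58 ± 0.16, 0.0331). Groups did not overlap in any of the 4, yet all were lost on leaving out a library: Pola2 without Oxa 2 (adjusted p 0.0532), Ccne2 without PBS 3, Oxa 1, Oxa 2 or Oxa 3 (adjusted p up to 0.0634), Mcm2 without PBS 1, PBS 3, Oxa 1, Oxa 2 or Oxa 3 (adjusted p up to 0.0968) and Pold1 without PBS 1, PBS 3, Oxa 1, Oxa 2 or Oxa 3 (adjusted p up to 0.123). The ligase Lig1, which joins Okazaki fragments, was called only without PBS 2 (9.96, 20 and 9.68 in PBS and 21.2, 21.6 and 21.1 in Oxa; 0.70 ± 0.22, 0.059 with it, 1.12 and 5.31e-05 without).

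E2F motifs were looked for in the promoters of that list. RefSeq windows of GRCm38.p6, 250 bases before to 50 after the start, were found for 28 of the 35 genes (31 windows), and 38.7% held TTTCCCGC or TTTGGCGC on either strand, against 1.56% of all 32851 windows and 3.19% of those of tested genes. Among all called genes the share was 3.28% for those that rose and 1.80% for those that fell. The share of the G1/S list describes the list and not a change in Oxa. A match describes the letters and is not a binding site. The 250 bases before the start are shown for the helicase subunits Mcm6 (chr1:128359706-128359955, minus strand) and Mcm5 (chr8:75109259-75109508, plus strand), picked after their values were seen, as examples that carry the motif, in capitals. The motif letters did not occur in the same 250 bases of Mcm2, Pola2 and Pold1. Mcm6 was called only without PBS 2 (0.68, adjusted p = 0.000330, against 0.38 and 0.155 with it), and so was Mcm5 (0.57 and 0.000773, against 0.24 and 0.408).
Mcm6: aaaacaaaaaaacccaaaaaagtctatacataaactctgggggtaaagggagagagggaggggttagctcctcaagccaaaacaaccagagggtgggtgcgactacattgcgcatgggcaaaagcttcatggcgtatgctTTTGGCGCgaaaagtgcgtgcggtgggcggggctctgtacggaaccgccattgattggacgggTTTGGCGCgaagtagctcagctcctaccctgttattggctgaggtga
Mcm5: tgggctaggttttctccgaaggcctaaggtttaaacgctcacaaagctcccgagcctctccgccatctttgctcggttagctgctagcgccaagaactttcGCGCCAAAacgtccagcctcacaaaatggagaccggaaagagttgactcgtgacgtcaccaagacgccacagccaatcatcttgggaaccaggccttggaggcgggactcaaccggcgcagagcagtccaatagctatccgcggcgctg

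DNA repair genes leaned the same way. Of 41 tested, 9 rose and 2 fell (median 0.22), and without PBS 2 17 rose and 2 fell (0.26). Among all tested genes 5.35% were called higher and 4.76% lower (14.2% and 11.2% without PBS 2). Xrcc1, the scaffold of single-strand break repair, was at 6.35, 5.16 and 5.53 in PBS and 9.09, 8.26 and 8.79 in Oxa (0.62 ± 0.10, adjusted p = 0.00351). Parp1, which senses those breaks, was at 25.5, 31.2 and 23.7 in PBS and 39.2, 39.6 and 39.7 in Oxa (0.57 ± 0.11, 0.00753). The exonuclease Exo1 was at 2.78, 3.92 and 2.74 in PBS and 4.82, 4.81 and 5.33 in Oxa (0.67 ± 0.13, 0.00898). No Oxa value of these 3 reached down to a control, and all 3 stayed called without each library. Of 38 mitosis and spindle genes 6 rose and 0 fell (median 0.07; 9 and 4, 0.09 without PBS 2). Cdc25b, a phosphatase that activates CDK1, was at 30, 29.1 and 28 in PBS and 42.9, 45 and 41.9 in Oxa (0.58 ± 0.10, 0.00412). The centromere protein Cenpf (0.60 ± 0.11) and the kinesins Kif20a (0.45 ± 0.09) and Kif2c (0.46 ± 0.10, 0.0611 without Oxa 3) rose too.

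Of 23 p53 targets, 2 fell and 0 rose (median 0.07), and without PBS 2 6 rose and 2 fell (0.16). Among all tested genes 10.1% were called, and 25.5% without PBS 2, so these counts do not set the list apart. Cdkn1a, the CDK inhibitor p21, was at 4.68, 5.43 and 3.73 in PBS and 3.02, 2.24 and 2.98 in Oxa (-0.74 ± 0.18, adjusted p = 0.0229), lost without PBS 1, Oxa 2 or Oxa 3 (adjusted p up to 0.0966). Btg2, an antiproliferative gene, was at 2.66, 2.9 and 3.07 in PBS and 0.94, 0.91 and 1.59 in Oxa (-1.32 ± 0.24, 0.00625). Both were lower in every Oxa library than in any control.

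**Figure D4:**
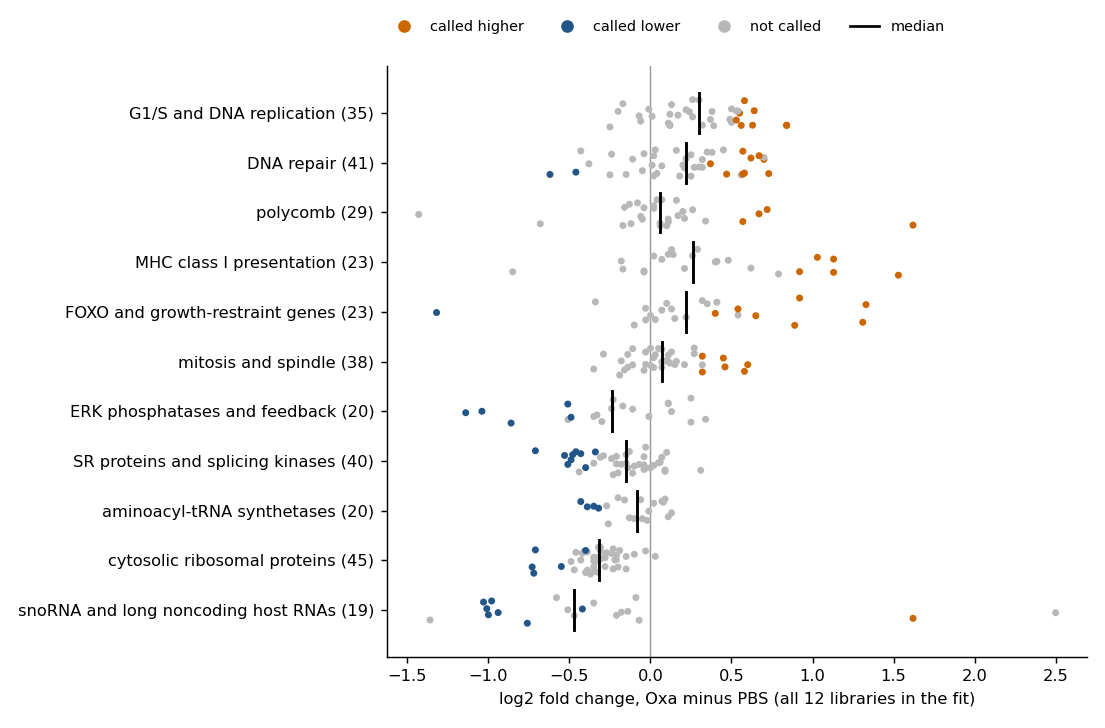
Log2 fold change (Oxa minus PBS, all 12 libraries in the fit) of every tested member of 11 gene lists. Each point is 1 gene, orange where called higher, dark blue where called lower and grey where not called, and the black bar is the list's median, from 0.30 for G1/S genes to -0.47 for snoRNA host genes.

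Genes of amino acid supply were called in both directions with all libraries. Of all tested genes 10.1% were called, and 25.5% without PBS 2. Asns, which makes asparagine (chromosome 6, 7675169 to 7693254), was at 240, 225 and 228 in PBS and 152, 157 and 169 in Oxa (-0.53 ± 0.09, adjusted p = 0.00581). Pycr1, of proline synthesis, was at 6.97, 4.19 and 6.91 in PBS and 3.81, 3.41 and 4.51 in Oxa (-0.62 ± 0.18, 0.0417). Asns groups were apart, while for Pycr1 PBS 2 lay among the Oxa libraries and the call ended without PBS 1, PBS 3, Oxa 1, Oxa 2 or Oxa 3 (adjusted p up to 0.147). Ddit3 (CHOP), a transcription factor of prolonged stress, was at 30.9, 34.7 and 31.3 in PBS and 44, 42.9 and 46.1 in Oxa (0.46 ± 0.09, 0.00766). The glycine transporter Slc6a9 was at 27.9, 20 and 23.7 in PBS and 38.9, 35.5 and 36 in Oxa (0.63 ± 0.14, 0.0141, 0.0542 without Oxa 1). Of 28 genes of ATF4 and amino acid stress tested, Ddit3 and Slc6a9 rose and Asns and Pycr1 fell, with a median of -0.04. Without PBS 2, 9 rose and 3 fell, with a median of 0.19. Chac1, which degrades glutathione, was at 46.2, 155 and 33.8 in PBS and 122, 134 and 127 in Oxa: PBS 2 exceeded every Oxa library, and the gene was called only without it (1.68, 6.10e-05, against 0.71 ± 0.40, 0.281).

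Aminoacyl-tRNA synthetases, which charge tRNAs, fell in 4 of 20 cases and rose in 0 (median -0.08; 6, 1 and -0.10 without PBS 2). Rars, for arginine, was at 142, 131 and 135 in PBS and 94.2, 101 and 105 in Oxa (-0.43 ± 0.10, adjusted p = 0.0188). Eprs, for glutamate and proline, was at 47.3, 45.8 and 48.1 in PBS and 35.4, 34.2 and 37.4 in Oxa (-0.39 ± 0.08, 0.0093). Tars (-0.35 ± 0.09, 0.0287) and Lars (-0.32 ± 0.08, 0.0287) fell as well. All 3 Oxa libraries were below the controls in these 4, and the calls of Rars, Tars and Lars ended without PBS 1, Oxa 1, Oxa 2 or Oxa 3 (adjusted p up to 0.0919, 0.114 and 0.0933).

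The letters TGATGNAA, the core of the amino acid response element that ATF4 dimers recognise, occurred on either strand in 29.0% of 31 promoter windows of the ATF4 list (26 genes) and in 38.5% of 13 windows of the synthetases (13 genes). The share was 3.97% of all windows and 2.1% of those of tested genes. Among all called genes it was 1.79% for those that rose and 3.96% for those that fell. The shares of the 2 lists describe the lists and not a change in Oxa. Genes that hold the motif and moved in different directions are shown with it in capitals: Pycr1 (chr11:120643749-120643998, minus strand) and Tars (chr15:11399659-11399908, minus strand), both lower in Oxa, and Chac1 (chr2:119350992-119351241, plus strand), higher without PBS 2. They were picked after their values were seen.
Pycr1: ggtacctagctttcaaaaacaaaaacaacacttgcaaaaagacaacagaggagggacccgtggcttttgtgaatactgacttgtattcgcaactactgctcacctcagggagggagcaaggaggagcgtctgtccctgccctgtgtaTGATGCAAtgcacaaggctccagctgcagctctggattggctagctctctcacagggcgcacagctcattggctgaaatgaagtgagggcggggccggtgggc
Tars: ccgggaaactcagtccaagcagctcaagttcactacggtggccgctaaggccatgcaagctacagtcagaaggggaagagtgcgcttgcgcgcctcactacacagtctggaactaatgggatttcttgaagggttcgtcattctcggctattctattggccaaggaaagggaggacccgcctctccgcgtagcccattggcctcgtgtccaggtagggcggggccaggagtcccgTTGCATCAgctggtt
Chac1: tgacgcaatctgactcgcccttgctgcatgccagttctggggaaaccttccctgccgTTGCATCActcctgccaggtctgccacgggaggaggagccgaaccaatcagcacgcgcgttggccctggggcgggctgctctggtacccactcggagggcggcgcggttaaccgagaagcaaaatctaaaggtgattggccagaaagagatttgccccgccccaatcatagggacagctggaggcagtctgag

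Cth was 1 of 2 called of 25 genes of cysteine, glutathione and transsulfuration, both lower. The other was Mtrr, which reactivates methionine synthase, at 9.9, 10.6 and 10.3 in PBS and 7.18, 6.92 and 8.3 in Oxa (-0.45 ± 0.08, adjusted p = 0.00621). The list median was -0.01 (0.06 without PBS 2, with 2 higher and 4 lower). Among 17 selenoproteins Selenoo and the mitochondrial thioredoxin reductase Txnrd2 fell, the latter at 7.39, 4.84 and 8.17 in PBS and 3.68, 3.47 and 3.68 in Oxa (-0.90 ± 0.17, 0.00677). Selenon, of the endoplasmic reticulum, was at 10.9, 6.73 and 10.4 in PBS and 15, 15.9 and 12.2 in Oxa (0.63 ± 0.18, 0.045), and its call ended without PBS 2, PBS 3, Oxa 1 or Oxa 2 (adjusted p up to 0.161). Without PBS 2, 3 selenoproteins were called higher and 3 lower. Of 27 NRF2 targets, 2 rose and 2 fell (5 and 3 without PBS 2). Hmox1, heme oxygenase 1, was at 15.9, 22 and 18.1 in PBS and 25, 28.7 and 32 in Oxa (0.62 ± 0.12, 0.00815). The quinone reductase Nqo1 was at 3.33, 3.84 and 3.24 in PBS and 1.65, 1.53 and 2.07 in Oxa (-0.98 ± 0.22, 0.015, lost without Oxa 1 or Oxa 2 (adjusted p up to 0.0654)), so these members moved in opposite directions.

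In the endoplasmic reticulum, Hspa5 (BiP), its main chaperone, was at 1187, 1255 and 1122 in PBS and 814, 700 and 729 in Oxa (-0.66 ± 0.13, adjusted p = 0.00825). Ero1l, an oxidase that forms disulfides, was at 69.5, 62.9 and 70.2 in PBS and 48.2, 40.4 and 49.5 in Oxa (-0.55 ± 0.11, 0.0096). Both groups were apart, and these 2 were the calls among 23 folding genes, with 0 higher (3 higher and 4 lower without PBS 2). In the cytosol Hsf1, the master factor of the heat shock response, was at 7.88, 6.71 and 7.84 in PBS and 10.9, 10.7 and 10.7 in Oxa (0.53 ± 0.10, 0.00691), while the small chaperone Hspb8 was at 84.6, 74.8 and 85.4 in PBS and 53.8, 56 and 55 in Oxa (-0.56 ± 0.12, 0.00999). They were the 2 calls among 16 genes with all libraries. Without PBS 2, 7 rose and 1 fell.

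With all libraries, immediate early genes were mostly lower among those called, with 6 of 24 lower and 2 higher (median -0.11). Without PBS 2 more were called higher (9) than lower (7), with a median of -0.13. Egr1, a zinc finger factor induced by ERK, was at 4.29, 17.7 and 3.68 in PBS and 1.47, 1.23 and 1.15 in Oxa, with PBS 2 the highest. The change was -2.73 ± 0.48 (adjusted p = 0.00555) and -1.62 without PBS 2 (0.000167), so PBS 2 enlarged it, while all Oxa libraries lay below every control. Fosl1 (FRA-1), an AP-1 subunit, was at 108, 128 and 105 in PBS and 68, 67.2 and 50.1 in Oxa (-0.87 ± 0.17, 0.00797). Zfp36, which destabilises AU-rich mRNAs, was at 5.34, 5.07 and 4.2 in PBS and 3.15, 2.98 and 2.59 in Oxa (-0.74 ± 0.15, 0.0108). Another AP-1 subunit, Jund, was at 134, 142 and 121 in PBS and 187, 219 and 164 in Oxa (0.53 ± 0.12, 0.0177, lost without PBS 3, Oxa 1 or Oxa 2 (adjusted p up to 0.0944)).

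Feedback inhibitors of ERK signalling fell in 5 of 20 cases and rose in 0 (7 lower and 4 higher without PBS 2; medians -0.23 and -0.16). Dusp1, a nuclear MAP kinase phosphatase, was at 5.99, 3.93 and 6.19 in PBS and 2.52, 2.82 and 1.92 in Oxa (-1.14 ± 0.21, adjusted p = 0.00645). Dusp6, which acts on ERK in the cytoplasm, was at 15.1, 11.9 and 12.6 in PBS and 9.36, 8.9 and 9.82 in Oxa (-0.49 ± 0.11, 0.0163). Spry2, a Sprouty protein, was at 16.4, 13.7 and 14.3 in PBS and 11.4, 10.4 and 9.22 in Oxa (-0.51 ± 0.12, 0.0212). Groups were apart in these 3, and the call of Dusp1 held without each library in turn. Dusp6 was lost without PBS 1, Oxa 1 or Oxa 2 (adjusted p up to 0.0608) and Spry2 without PBS 1, Oxa 2 or Oxa 3 (adjusted p up to 0.0945). Spred3 was at 4.17, 1.96 and 5.65 in PBS and 2.17, 1.7 and 1.81 in Oxa, with PBS 2 among the Oxa values (-1.04 ± 0.29, 0.04, lost without PBS 1, PBS 3, Oxa 1, Oxa 2 or Oxa 3 (adjusted p up to 0.159)). Errfi1, which restrains the EGF receptor, was at 57.3, 137 and 60.3 in PBS and 46.9, 47.8 and 44.7 in Oxa and moved from -0.86 ± 0.25 (0.0449) to -0.33 (0.0157) without PBS 2. Its call ended without Oxa 1, Oxa 2 or Oxa 3 (adjusted p up to 0.126).

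In the list of the plasminogen system the called members were all lower, 4 of 9 tested with 0 higher. Plau, the urokinase protease, was at 55.5, 84.8 and 59.5 in PBS and 42.1, 34.9 and 33 in Oxa (-0.85 ± 0.17, adjusted p = 0.0088). Plaur, its receptor, was at 43.5, 56.5 and 45.1 in PBS and 30.4, 28.5 and 27.9 in Oxa (-0.73 ± 0.13, 0.00569). Serpinf1, a serpin that does not inhibit proteases and restrains vessel growth, was at 2.81, 2.55 and 3.28 in PBS and 1, 1.23 and 0.86 in Oxa (-1.46 ± 0.19, 0.00183), and Serpinb2 was described above. All 4 calls held without each library, and the groups were apart. Without PBS 2, 2 of the 9 rose and 4 fell.

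Of 28 NF-kB, chemokine and cytokine genes, 2 rose and 4 fell (5 and 4 without PBS 2; medians -0.16 and 0.01). Nfkb2, the precursor of the p52 subunit, was at 54.4, 70.9 and 46.9 in PBS and 97.5, 104 and 92.6 in Oxa (0.78 ± 0.17, adjusted p = 0.0142, lost without PBS 3 or Oxa 2 (adjusted p up to 0.0618)). Tslp, a cytokine of epithelia, was at 64.7, 185 and 70.7 in PBS and 44.5, 36.2 and 39.2 in Oxa (-1.41 ± 0.31, 0.0129), and without PBS 2 the change was -0.75 (0.00089). Tnfaip3 (A20), which ends NF-kB signalling, was at 17.9, 34.1 and 21.8 in PBS and 15.8, 14.1 and 14.9 in Oxa (-0.71 ± 0.18, 0.0238; -0.39, 0.00967 without PBS 2). Csf3, the granulocyte growth factor, was at 19.9, 27 and 20.8 in PBS and 14.4, 12.1 and 15.7 in Oxa (-0.68 ± 0.17, 0.0244). PBS 2 was the highest library for these 3 falls, and all 3 were called without it. Their calls ended without Oxa libraries instead: Tslp without Oxa 2 or Oxa 3 (adjusted p up to 0.0597), Tnfaip3 without Oxa 1, Oxa 2 or Oxa 3 (adjusted p up to 0.0878) and Csf3 without Oxa 1 or Oxa 2 (adjusted p up to 0.0984).

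Antigen presentation genes were higher where called with all libraries, 5 of 23 with 0 lower and a median of 0.26 (10, 1 and 0.30 without PBS 2). Among all tested genes 5.35% were called higher, and 14.2% without PBS 2. The class I genes H2-K1, H2-D1 and B2m, and Tap1, were not called in either fit. The 1 member called lower without PBS 2 was Nlrc5. Tapbp (tapasin), which loads peptides on class I molecules, was at 6.57, 11.4 and 5.45 in PBS and 22.9, 24.4 and 20.2 in Oxa, 2.89-fold higher (1.53 ± 0.29, adjusted p = 0.00691; 1.91 without PBS 2). Tap2, of the peptide transporter, was at 4.73, 4.6 and 4.69 in PBS and 10.9, 10.5 and 9.07 in Oxa (1.13 ± 0.22, 0.00863). Irf1, an interferon-induced factor that drives these genes, was at 4.14, 1.82 and 4.91 in PBS and 7.51, 7.06 and 9.12 in Oxa (1.13 ± 0.28, 0.0225, lost without Oxa 1, Oxa 2 or Oxa 3 (adjusted p up to 0.0788)). The immunoproteasome subunit Psmb8 was at 0.57, 1.17 and 0.67 in PBS and 1.53, 1.54 and 1.82 in Oxa (1.03 ± 0.28, 0.0341, lost without PBS 1, PBS 3, Oxa 1, Oxa 2 or Oxa 3 (adjusted p up to 0.121)). All 4 had no overlap between the groups. Among 23 type I interferon response genes 5 rose and 2 fell (7 and 2 without PBS 2; median 0.00 and 0.02). Ifi35 was at 4.23, 8 and 4.4 in PBS and 12.7, 12.6 and 14.3 in Oxa (1.26 ± 0.23, 0.00632). The RNA sensor Ddx58 (RIG-I) was at 3.92, 4.81 and 4.99 in PBS and 6.35, 7.23 and 6.6 in Oxa (0.57 ± 0.13, 0.0181, lost without PBS 1 or Oxa 2 (adjusted p up to 0.084)). The antiviral Rsad2 went the other way, at 1.83, 1.11 and 1.38 in PBS and 0.85, 0.57 and 0.72 in Oxa (-1.02 ± 0.25, 0.0235, lost without PBS 1, Oxa 2 or Oxa 3 (adjusted p up to 0.0958)).

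Among 14 keratin and cornified envelope genes 2 rose and 0 fell (median -0.06), and without PBS 2 6 rose and 1 fell (0.23). Tgm1, a transglutaminase that crosslinks the envelope, was at 1.01, 1.42 and 0.76 in PBS and 3.66, 3.31 and 3.81 in Oxa (1.76 ± 0.31, adjusted p = 0.0053). Periplakin (Ppl) was at 7.23, 8.32 and 7.86 in PBS and 11.5, 10.8 and 11.7 in Oxa (0.55 ± 0.12, 0.0145, 0.0507 without PBS 1). Krt14, a basal keratin, was at 3.37, 19.9 and 2.12 in PBS and 5.39, 6.55 and 5.43 in Oxa. PBS 2 stood above all Oxa libraries and the other controls below them, and the change was -0.54 ± 0.58 (0.59) with PBS 2 and 1.08 (0.00635) without. Of 24 adhesion genes, Dsg3 fell and the desmosomal plaque proteins Pkp2 (8.21, 7.8 and 9.03 in PBS and 11.3, 10.4 and 12.2 in Oxa, 0.45 ± 0.09, 0.00977) and plakoglobin (Jup, 13.9, 16.4 and 12.9 in PBS and 21.3, 21.6 and 18.5 in Oxa, 0.51 ± 0.13, 0.0244) rose, and without PBS 2 5 rose and 3 fell. The call of Jup ended without PBS 1, PBS 3, Oxa 1 or Oxa 2 (adjusted p up to 0.105). Vimentin (Vim), an intermediate filament of mesenchymal cells, was at 50.2, 72.9 and 44.7 in PBS and 113, 114 and 111 in Oxa (1.02 ± 0.15, 0.00302) and was the 1 called of 18 mesenchymal genes (5 higher and 2 lower without PBS 2).

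Most cell death genes were not called, which also holds for all tested genes, of which 10.1% were called (25.5% without PBS 2). Of 14 BCL2 family genes 3 rose and 1 fell (4 and 1 without PBS 2). The survival factor Mcl1 was at 48.3, 46 and 53.6 in PBS and 37.2, 35.8 and 37.6 in Oxa (-0.41 ± 0.08, adjusted p = 0.00691), below the controls in every Oxa library. Bcl2l11 (BIM), which opposes MCL1, was at 2.36, 2.94 and 2.01 in PBS and 3.88, 3.73 and 3.63 in Oxa (0.62 ± 0.17, 0.0315, lost without PBS 1, PBS 3, Oxa 1, Oxa 2 or Oxa 3 (adjusted p up to 0.108)). The mitophagy receptors Bnip3 (6.39, 6.34 and 5.07 in PBS and 10.3, 6.42 and 14.6 in Oxa, 0.81 ± 0.24, 0.0466) and Bnip3l (0.39 ± 0.11, 0.0455) rose, with Oxa 2 close to the controls for Bnip3, and were lost without PBS 1, PBS 3, Oxa 1 or Oxa 3 (adjusted p up to 0.203) and without PBS 1, PBS 2, PBS 3, Oxa 1, Oxa 2 or Oxa 3 (adjusted p up to 0.194). Of 21 death receptor, caspase and pyroptosis genes 1 rose and 2 fell (3 and 2 without PBS 2). The kinase Ripk1 was at 2.09, 3.22 and 2.06 in PBS and 4.14, 4.31 and 4.41 in Oxa (0.81 ± 0.15, 0.00691). Cflar (c-FLIP), which blocks caspase 8, was at 3.7, 2.61 and 4.03 in PBS and 2.36, 2.14 and 2.19 in Oxa (-0.62 ± 0.14, 0.0141, lost without PBS 3, Oxa 2 or Oxa 3 (adjusted p up to 0.0561)).

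Both metallothioneins named here, which bind zinc and copper, rose. Mt1 was at 32.8, 29 and 30.5 in PBS and 40.5, 42.3 and 44 in Oxa (0.47 ± 0.09, adjusted p = 0.00671). Mt2 was at 47.2, 73.7 and 38.4 in PBS and 90.2, 82.5 and 111 in Oxa (0.83 ± 0.19, 0.0159, lost without PBS 1 or Oxa 3 (adjusted p up to 0.073)). Slc31a1 (CTR1), the copper importer, was at 11.9, 13.7 and 10.7 in PBS and 9.15, 8.19 and 8.76 in Oxa (-0.47 ± 0.11, 0.0203), with every Oxa library below the controls, and was lost without PBS 1, Oxa 1, Oxa 2 or Oxa 3 (adjusted p up to 0.0907). These were the 3 calls among 18 metal handling genes (2 higher and 4 lower without PBS 2). Of 23 FOXO and growth-restraint genes 7 rose and 1 fell (median 0.22; 8, 2 and 0.15 without PBS 2), with Pdcd4, Calcoco1 (1.06, 0.65 and 1.28 in PBS and 2.47, 2.49 and 2.39 in Oxa, 1.31 ± 0.22, 0.00498) and Mxi1 higher and Btg2 lower. Of 40 autophagy and lysosome genes 6 rose and 0 fell (8 and 4 without PBS 2; medians 0.13 and 0.10). The receptor Sqstm1 (p62) was at 340, 337 and 307 in PBS and 400, 423 and 451 in Oxa (0.38 ± 0.09, adjusted p = 0.0229, lost without PBS 1, PBS 3, Oxa 1, Oxa 2 or Oxa 3 (adjusted p up to 0.111)). The cathepsin Ctsw was at 2.01, 5.35 and 2.05 in PBS and 9.84, 7.47 and 8.37 in Oxa (1.45 ± 0.35, 0.0205, 2.08 without PBS 2), lost without PBS 1, PBS 3, Oxa 1, Oxa 2 or Oxa 3 (adjusted p up to 0.0795).

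The calls of other lists stand beside 10.1% of all tested genes called, and 25.5% without PBS 2. Of 30 hypoxia and glycolysis genes 3 rose and 1 fell (9 and 1 without PBS 2), with Hk1, a hexokinase, at 4.71, 4.46 and 5.19 in PBS and 7.3, 6.89 and 6.04 in Oxa (0.51 ± 0.11, adjusted p = 0.0137, lost without Oxa 1 or Oxa 2 (adjusted p up to 0.0617)). Of 23 cholesterol synthesis genes 3 fell and 0 rose (median -0.19), while without PBS 2 7 rose and 3 fell (0.04). Squalene epoxidase (Sqle) was at 18.2, 22.8 and 19.9 in PBS and 14.1, 14.8 and 13.7 in Oxa (-0.50 ± 0.10, 0.00948) and was called in both. Of 14 circadian clock genes 0 were called with all libraries and 2 rose and 4 fell without PBS 2, among them the repressor Cry1 (13.5, 5.64 and 14.9 in PBS and 8.33, 8.4 and 9 in Oxa; -0.72, 0.000214 without PBS 2). Of 22 YAP and TEAD targets 2 fell and 1 rose (3 and 2 without PBS 2), with Ankrd1 at 42.9, 56.6 and 57.9 in PBS and 32.7, 29.2 and 31.6 in Oxa (-0.74 ± 0.11, 0.00324). Of 8 prostaglandin synthesis genes, of which 1 rose and 2 fell without PBS 2, the phospholipase Pla2g4a was the 1 call with all libraries (-0.39 ± 0.10, 0.0251, lost without PBS 3, Oxa 1 or Oxa 2 (adjusted p up to 0.106)). Ptgs2 (COX-2) was at 136, 527 and 152 in PBS and 164, 130 and 156 in Oxa and not called (-0.85 ± 0.39, 0.177; 0.07, 0.779 without PBS 2).

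Among genes with an average of 50 FPKM or more in the group where they were higher, the largest rises included Col7a1, the collagen of anchoring fibrils, at 18.1, 30.7 and 22.1 in PBS and 70.7, 47 and 55 in Oxa (1.29 ± 0.25, adjusted p = 0.00808). Its controls, like those of Grn and Sfr1 below, lay under 50 FPKM, so these passed that level only through Oxa. Vim, Mt2, Nfkb2 and Jund belonged to the same set, and so did Grn (progranulin, 35.9, 27.9 and 36.1 in PBS and 53.5, 49.7 and 47.4 in Oxa, 0.60 ± 0.13, 0.0137, 0.054 without Oxa 1) and Sfr1, a recombination factor (0.59 ± 0.15, 0.0267, lost without PBS 1, PBS 3, Oxa 1, Oxa 2 or Oxa 3 (adjusted p up to 0.107)). Transcripts of mitochondrial DNA in that set were the ribosomal RNAs mt-Rnr1, at 113, 84.1 and 137 in PBS and 260, 213 and 151 in Oxa (0.92 ± 0.22, 0.0199), and mt-Rnr2 (0.79 ± 0.21, 0.03), and the mRNA mt-Nd2 (0.54 ± 0.15, 0.036). For mt-Rnr2 the groups overlapped, at 235, 197 and 325 in PBS and 550, 430 and 318 in Oxa. The ribosomal RNAs carry at most a short poly(A) tail, and for them too the part of the selection was not tested. The calls of both ended without PBS 1, Oxa 1 or Oxa 2 (adjusted p up to 0.0912 and 0.131), and that of mt-Nd2 without PBS 1, PBS 3, Oxa 1, Oxa 2 or Oxa 3 (adjusted p up to 0.134). Of the falls, Emp1, an epithelial membrane protein, was at 179, 176 and 198 in PBS and 110, 97.7 and 111 in Oxa (-0.79 ± 0.13, 0.00388). Il24, a cytokine of the IL-10 family, was at 57.1, 148 and 63.5 in PBS and 45, 40.5 and 39.4 in Oxa (-1.10 ± 0.31, 0.0405), was not called without PBS 2 (-0.52, 0.0694), and was also lost without Oxa 1, Oxa 2 or Oxa 3 (adjusted p up to 0.124).

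Genes called only without PBS 2 are given as a description, since that choice favours genes in which PBS 2 lies toward or beyond the Oxa libraries. Of the 10 rises with the smallest p, Tuba1a, an alpha tubulin, was at 31.8, 84.4 and 29.2 in PBS and 64.7, 62.7 and 65.8 in Oxa, so that PBS 1 and PBS 3 lay below and PBS 2 above the Oxa libraries. Tubb5, a beta tubulin, was at 83.8, 185 and 66.9 in PBS and 166, 171 and 167 in Oxa, and Melk, a kinase of dividing cells, at 6.1, 15.8 and 5.55 in PBS and 14.2, 14.1 and 14.7 in Oxa, in the same order. Their changes without PBS 2 were 1.09 (adjusted p = 1.19e-05), 1.16 (6.54e-05) and 1.31 (1.19e-05), against 0.42 ± 0.29 (0.389), 0.59 ± 0.27 (0.171) and 0.65 ± 0.29 (0.166) with it. Of the falls, the integrin Itgb7 was at 24.9, 8.15 and 24.3 in PBS and 13.2, 10.8 and 11.6 in Oxa and Cdsn (corneodesmosin) at 14.4, 4.75 and 11.6 in PBS and 4.28, 5.79 and 5.47 in Oxa. Without PBS 2 they changed by -1.04 (8.29e-05) and -1.32 (0.000214). Over all tested genes, the 3 Oxa libraries lay to 1 side of PBS 1 and PBS 3 in 56.0% (28.3% above, 27.7% below). Each of these calls rests on 2 control libraries.

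**Figure D5:**
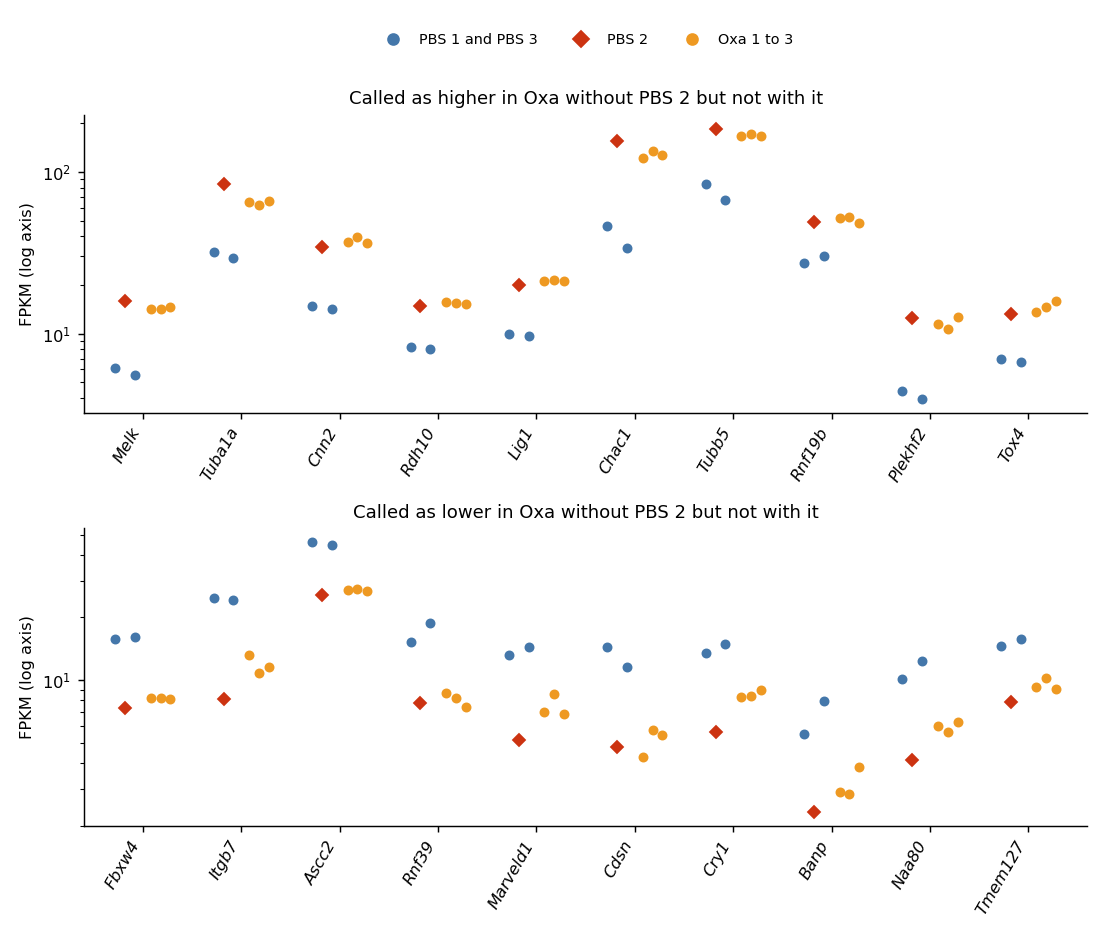
FPKM on a log axis in each PBS and Oxa library for 10 genes called higher (top) and 10 called lower (bottom) only without PBS 2. PBS 1 and PBS 3 (blue) lie apart from the Oxa libraries (orange), while PBS 2 (red diamonds) lies close to or beyond the Oxa libraries, for example at 84.4 FPKM for Tuba1a against 62.7 to 65.8 in Oxa, as the choice of genes favours.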

How the data were processed

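Poly(A)-selected RNA of 12 libraries of 4T1 cells, 4 groups of 3, was sequenced, and 6 libraries are compared here. The submitters' processing notes list the tools HISAT2 2.2.1, StringTie 2.1.6 and cutadapt 1.9, as well as edgeR and DESeq2, and give no roles. Per the file headers, the deposited table gives FPKM, scaled by the authors to length and library, and a count per gene and library. Those deposited values are estimated counts, whole numbers left unscaled between libraries. The notes list mm9, yet of 29864 genes found by identifier in GENCODE M21, 90.9% sit at their GRCm38 position, and GRCm38 positions are printed only for such genes. How multiply mapping reads and strand were counted is not given in the sources used here.

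A gene was tested where FPKM reached 1 in 3 or more of the 12 libraries, which held for 12036. Counts, after TMM scaling, entered an edgeR 4.0.16 quasi-likelihood model (R 4.3.3; glmQLFit, glmQLFTest, 2-sided) with 1 mean per group over all 12 libraries, and p-values were adjusted by Benjamini-Hochberg over all genes tested. The SE is the log2 change over the root of the F statistic. The scripts were tested on simulated data. Depth was 64071751 to 71500487 counts per library.

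Named genes are, per direction, up to 15 called genes with the smallest p, groups apart, an average of 2 FPKM or more in the higher group and the same call without PBS 2. Further ones are up to 10 called genes with the largest change at an average of 50 FPKM or more, up to 10 called only without PBS 2 at 5 FPKM or more, and up to 4 called members per list (all members where 15 or fewer were tested). Predicted genes and pseudogenes were left out, and some genes that the rule picks are not reported here. The comparison, the 43 gene lists and 12 marker lists were chosen with earlier results of these data known. Promoter windows are RefSeq's (GRCm38.p6), matched by symbol. Alternatives were other scalings, filters, tools (DESeq2 1.42.0, limma 3.58.1) and libraries. Numbers shared between groups did not pair the libraries, and 57 gene names belong to more than 1 identifier.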

Additional observations from a re-analysis of the deposited data

How the results depend on the processing

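With all libraries 1217 genes were called (644 higher, 573 lower). Calls fell to 701 (388 and 313) with no filter on low values and to 523 (283 and 240) in a fit of only the 6 libraries compared. They rose to 2015 (1022 and 993) with DESeq2, to 4394 (2331 and 2063) with voom and library quality weights, which gave PBS 2 a weight of 0.131, and to 3878 (2093 and 1785) in a fit of only the Oxa and PBS libraries without PBS 2. Leaving out 1 library at a time gave 477 to 3066 calls (250 to 1714 higher and 227 to 1352 lower), the highest without PBS 2 and the lowest without Oxa 2. With the replicate number as a block there were 602 higher and 495 lower genes. The correlation of deviations between same-numbered libraries of 2 groups lay between -0.152 and 0.155, so the numbers were not taken to pair them. The other 6 scalings, filters and limma fits each kept the total within 1.5 times. Of the 270 named genes, 2 turned direction in an alternative with a call in either fit, and 30 others changed sign with no call in either. Krt14 (-0.54) ranged from -1.0 without PBS 3 to 1.08 without PBS 2, and was 1.08 in the fit of only Oxa and PBS libraries without PBS 2 and 0.82 with quality weights. Aff1 was 0.26 and 0.22 in those 2 fits. The cause was not tested. The common biological coefficient of variation was 18.1%. Whether the replicates were separate cultures, and the dose and time of Oxa, are not stated.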

Other observations

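Further groups held values not described above. Their calls stand beside 10.1% of all tested genes called, and 25.5% without PBS 2. Of 51 histone modifiers and chromatin remodellers, 2 rose and 2 fell with all libraries (6 and 10 without PBS 2). The histone demethylase gene Kdm5a was at 6.04, 6.62 and 7.2 in PBS and 5.26, 5.07 and 5.33 in Oxa (-0.33 ± 0.09, edgeR adjusted p = 0.0337), and the deacetylase gene Hdac7 at 9.64, 8.88 and 10.6 in PBS and 14.4, 15.2 and 12.1 in Oxa (0.53 ± 0.14, 0.0336). The ATPase gene Smarca2 changed by 0.37 ± 0.10 (0.0287) and Ino80 by -0.37 ± 0.09 (0.0197). Of 48 nuclear oxidative phosphorylation genes 1 rose and 1 fell (3 and 1 without PBS 2), Ndufb3 (0.49 ± 0.14, 0.0386) and Cox6a2 (-1.53 ± 0.45, 0.0493). Whether the calls of these chromatin and oxidative phosphorylation genes held without each single library is not given here. Of 13 immune checkpoint ligands and related genes Nt5e was the 1 call (1 higher and 1 lower without PBS 2), and Cd274 (PD-L1) was at 1.12, 0.54 and 0.7 in PBS and 0.88, 1.08 and 1.1 in Oxa (0.37 ± 0.32, 0.494). Of 13 hexosamine pathway genes Gnpnat1 was the 1 call with all libraries (2 higher and 1 lower without PBS 2).

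RNAs without a poly(A) tail, or with a short one, were looked at after their values had been seen. Besides Rn7sk and the mitochondrial mt-Rnr1 and mt-Rnr2, which were called and are described above, the signal recognition particle RNA gene Rn7s1 was at 12.9, 5.55 and 2.19 FPKM in PBS 1 to 3 and at 19.8, 43.5 and 15.1 in Oxa 1 to 3 (1.92, adjusted p = 0.0662), and its near-identical copy Rn7s2 gave like values (1.95, adjusted p = 0.0612). Rmrp, the RNA of RNase MRP, was at 2.51, 0.68 and 0.29 in PBS 1 to 3 and at 4.37, 12.4 and 3.4 in Oxa 1 to 3 (2.50, adjusted p = 0.0658). For Rn7s1, Rn7s2 and Rmrp the Oxa libraries lay above the controls with Oxa 2 the highest, and none was called. Outside the comparison, the library OAP2 2 held Rn7sk at 22.7 FPKM and Rmrp at 6.76, against 8.36 and 9.06 and against 1.71 and 0.91 in OAP2 1 and OAP2 3. The labels state selection by poly(A), and its part in these values was not tested.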
